A study of Homo sapiens with 402 samples.

Results

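AKR1C1, AKR1C2, AKR1C3, AKR1B10, NQO1 and ALDH3A1 are 6 genes whose enzymes reduce or oxidise carbonyl compounds and quinones, and they are described here across all exposures of a chemical screen in MCF10A cells. They were selected on measured values: they stood out in earlier results of the same libraries, at 25 µM of arsenic, cadmium, copper, mercury and thiram, in BPF, in PFNA, between the water and DMSO controls of plate 3240-AT, and between the first-numbered and last-numbered controls of plate 3206-AT. For those contrasts, for the dose trends of the 5 chemicals, and for differences between numbered sets that rest on such a contrast, values are given as a description with no test. All other contrasts were tested. On plates 3153-AT, 3206-AT, 3240-AT and 3284-AT, tested changes against controls use control libraries that also entered those choices. They are therefore not independent of the choice of genes. The 6 genes are 6 of the 34721 gene symbols in the count files, and each had counts in both sequencing runs and passed the filter on low counts on all 5 plates.

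AKR1C1, AKR1C2 and AKR1C3 are near neighbours on chromosome 10 and encode aldo-keto reductases that act on steroid hormones, prostaglandins and aldehydes. AKR1C3 forms potent androgens and estrogens, AKR1C1 inactivates progesterone, AKR1C2 inactivates dihydrotestosterone, and AKR1B10 reduces aldehydes and retinal. NQO1 is a quinone reductase that takes quinones to hydroquinones, and ALDH3A1 oxidises aldehydes to acids. In epithelial cells several of these genes are known targets of NRF2 (the product of NFE2L2), a transcription factor that KEAP1 holds at low levels until electrophiles or metals modify it. NRF2 then pairs with small MAF proteins at antioxidant response elements. NQO1 and ALDH3A1 are also known targets of the aryl hydrocarbon receptor, AhR.

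MCF10A is a non-tumorigenic breast epithelial line of wild-type genotype, per the labels. Cells of 1 passage were seeded in 384-well plates, exposed for 48 h to 1 of 21 chemicals at 0.025, 0.25, 2.5 or 25 µM, and lysed for plexWell RNA sequencing, which barcodes each well and then each plate. The 402 libraries were 333 dosed and 69 control libraries. The metals (lead, mercury, copper, cadmium and arsenic) shared plate 3153-AT, dissolved in water, and its 15 controls had water alone. On plate 3206-AT were the bisphenols BPA, BPF and BPS and the parabens MPB and PPB, and on plate 3284-AT thiram, PCB187, PCB153, DCP_25 and DCB_14, each plate having 15 DMSO controls. Plate 3240-AT mixed solvents: phenanthrene, PFOS, PFNA and PFDA were given in DMSO (12 controls), but PFOA in water (4 controls). DDE, labelled DMSO, was on the 24-library plate 2250-AT of the other run. Its 8 controls carry that plate's barcode but are labelled as water and as plate 3153-AT. Of the 84 dosed groups, 81 had 4 libraries, 2 had 3 and cadmium at 25 µM had 2. The labels call the 4 libraries of a dose biological replicates, all from 1 line, so p-values measure the spread between wells.

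Replicates 1 and 2 of a group and the controls with the lower numbers of each block are called the first-numbered set, and the rest the last-numbered set. The labels do not say what the numbering stands for. The fits pool both sets, and several values are also given by set because the levels of the AKR1C genes moved with it.

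The stretches of sequence next to the starts of these genes are shown because AKR1C1 and AKR1C2 are hard to tell apart by sequence, and their ratio is one of the results below. Of the 6 genes, 4 had an entry in the RefSeq promoter table (GRCh38.p14), and AKR1C3 had 2 starts there. Each line gives the 120 bases before the start, 5′ to 3′ on the strand of the gene, with the CCAAT box read on the other strand in capitals. The lines are chr10:4963295-4963414 (plus strand) for AKR1C1, chr10:5003858-5003977 (minus strand) for AKR1C2, chr10:5048661-5048780 and chr10:5094294-5094413 (both plus strand) for AKR1C3, and chr16:69726561-69726680 (minus strand) for NQO1.
AKR1C1: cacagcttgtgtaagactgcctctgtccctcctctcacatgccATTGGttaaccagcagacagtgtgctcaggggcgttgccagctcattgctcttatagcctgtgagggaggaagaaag
AKR1C2: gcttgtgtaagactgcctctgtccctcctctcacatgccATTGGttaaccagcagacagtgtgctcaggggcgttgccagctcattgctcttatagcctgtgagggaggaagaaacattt
AKR1C3 start 1: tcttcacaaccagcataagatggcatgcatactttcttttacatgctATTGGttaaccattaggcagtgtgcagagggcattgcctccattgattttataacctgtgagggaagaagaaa
AKR1C3 start 2: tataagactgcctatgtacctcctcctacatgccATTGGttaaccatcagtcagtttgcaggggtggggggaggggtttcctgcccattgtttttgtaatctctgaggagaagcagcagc
NQO1: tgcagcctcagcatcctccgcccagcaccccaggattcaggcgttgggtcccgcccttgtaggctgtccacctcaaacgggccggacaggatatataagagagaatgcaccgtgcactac

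Over the 250 bases before the start, AKR1C1 and AKR1C2 were identical at 245 of 246 aligned bases (99.6%), and both matched either start of AKR1C3 at 76.8% to 79.5%. All 4 AKR1C stretches held 1 CCAAT box on either strand and the NQO1 stretch held none, and 32% of the 34796 promoters of the table held one in that window. The core of the antioxidant response element, TGACNNNGC on either strand, had no match in the 250 bases of any of the 5 stretches, against 10.9% of all promoters, which says only that these letters are not in this window. The related TGAGNNNGC had 1 match each in AKR1C1, AKR1C2 and NQO1, against 14.7% of all promoters.

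The transcripts themselves overlap too. In GENCODE transcripts, 38.1% of the 50-base stretches of AKR1C2 also occurred in AKR1C1, and 28.3% of those of AKR1C1 in AKR1C2. AKR1C3 shared 4.53% with its family and AKR1B10 shared 9.70% with AKR1B15, while NQO1 and ALDH3A1 shared none. How reads from shared stretches were assigned is not known here, so the single levels of AKR1C1 and AKR1C2 are less certain than their sum.

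Totals ran from 1.43 to 25.8 M counts per library, and the 2 cadmium libraries at 25 µM were among the shallowest. The basal keratins KRT5 and KRT6A had counts in every library, with medians of 1181 and 1252 CPM (the counts per 1 M counts of the scaled library). Other epithelial markers were lower, with medians of 20.9 CPM for KRT14, 18.1 for EPCAM, 10.6 for CDH1 (at 0 in 2 of 401 libraries) and 3.66 for TP63 (at 0 in 13). VIM, a mesenchymal filament that cultured epithelial cells also make, had a median of 854 CPM. Of the markers of other cells, PTPRC was at 0 in 356 of 377 libraries, CD3E in 375, VWF in 370, COL1A2 in 364 and PDGFRB in 200. COL1A1 was at 0 in only 10 of 401 (median 2.78 CPM, highest 20.1) and PECAM1 in 62 (median 1.19, highest 10.6). The hormone receptor genes ESR1 and PGR had medians of 0 CPM. ESR1 was at 0 in 231 of 401 libraries (highest 6.94 CPM) and PGR in 372 of 377 (highest 1.30). A further cadmium library at 25 µM carried the barcode of plate 3284-AT and was set aside before any test: it had 1284517 counts, with HMOX1 and AKR1B10 at 0 and AKR1C1 at 69.3 CPM, whereas the 2 libraries kept had HMOX1 at 3794 and 4127 CPM. One further library stood apart and enters the PCB153 group at 0.25 µM. Its replicate 3 had HMOX1 at 79.9 CPM against 2.22 to 14.9 in the other 3 replicates, and KRT5 at 2455 CPM against 1119 to 1189, and results that rest on it are given with and without it.

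In the control libraries, NQO1 was the highest of the 6 genes per length of exon. The length was the union of exons over all GENCODE transcripts, from 1.744 kb for AKR1B10 to 8.765 kb for AKR1C1. The order of the genes below NQO1 depends on that choice. On plate 3206-AT NQO1 had 232 ± 15.9 CPM per kb of exon (SD, n = 15), against 24.6 ± 6.83 for AKR1C3, 20.3 ± 8.97 for AKR1C2, 9.93 ± 2.85 for ALDH3A1, 6.03 ± 2.70 for AKR1C1 and 0.923 ± 0.730 for AKR1B10. The middle of this order depends on the plate and solvent: in the water controls of plate 3153-AT, AKR1C2 (74.9 ± 33.8, SD, n = 15) lay above AKR1C3 (50.3 ± 16.9), and their ranges of 1 SD overlapped. AKR1B10 was near the floor of detection on the DMSO plates. Its controls there had medians of 1.13 to 1.88 CPM, and some libraries had no count.

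AKR1C2, which had been chosen for the gap on plate 3206-AT, had the same gap on 2 other plates. On plate 3153-AT the first-numbered controls had a mean of 676 ± 60.1 CPM (SD, n = 8), lowest 614 and highest 770, and the last-numbered controls 264 ± 39.7 CPM (SD, n = 7), lowest 181 and highest 298, so the sets did not overlap. AKR1C2 was 2.55-fold higher in the first-numbered set (log2 1.35 ± 0.08 SE, edgeR adjusted p = 6.43e-28), AKR1C3 1.91-fold (adjusted p = 7.26e-18) and AKR1C1 1.94-fold (adjusted p = 1.28e-12), where 8.84% of all genes tested were called in either direction. On plate 3284-AT only AKR1C2 of the 6 was called, at 205 ± 21.7 CPM (SD, n = 8) against 125 ± 29.8 (SD, n = 7), 1.65-fold (edgeR adjusted p = 4.08e-09, 2.95% of genes called). The remaining tested contrast, on the DMSO controls of plate 3240-AT, had AKR1C2 at 91.7 ± 12.3 and 95.3 ± 13.6 CPM (SD, n = 6 each, log2 -0.06, edgeR adjusted p = 0.926). There ALDH3A1 was the member called, at 17 ± 4.90 against 26.1 ± 6.31 CPM (SD, n = 6 each, log2 -0.66, edgeR adjusted p = 0.0462, 0.548% of genes called). In the 4 water controls of that plate, described with no test, AKR1C2 went the other way, at 326 and 279 CPM in the first-numbered and 413 and 423 in the last-numbered (log2 -0.45).

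Depth moved with the same numbering. The median total of the controls was 20.9 M in the first-numbered and 3.17 M in the last-numbered set of plate 3153-AT, and 17.9 and 3.18 M on plate 3284-AT. Its part in the control levels was not tested. The dosed libraries of plate 3153-AT had median totals of 14.1 and 14 M in the same order. In 18 of their 19 groups with both sets, AKR1C2 was higher in replicates 1 and 2 than in replicates 3 and 4 without overlap, as at 25 µM lead, with 2133 and 2242 against 874 and 901 CPM. The exception was mercury at 2.5 µM, with 812 and 857 against 560 and 959 CPM. On plate 3284-AT this held in 16 of 20 groups, but on plate 3240-AT in 10 of 20, with 5 the other way round. NQO1 in the dosed groups of plate 3153-AT was higher in replicates 1 and 2 in 1 of 19 and lower in 11, and its controls there were at 607 ± 20.1 CPM (SD, n = 8) and 650 ± 44.5 (SD, n = 7), with an edgeR adjusted p of 0.36. On plate 3206-AT, where the gap was a ground for choosing AKR1C2, its 2 sets ran from 155 to 210 and from 58.1 to 94.4 CPM. In the dosed groups of that plate NQO1, AKR1C1 and AKR1C2 were each higher in replicates 1 and 2 without overlap in all 20. On plate 3240-AT AKR1C1 was lower in replicates 1 and 2 in 14 of 20 groups and higher in 3. The share of all genes with such gaps is not given here.

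**Figure D1:**
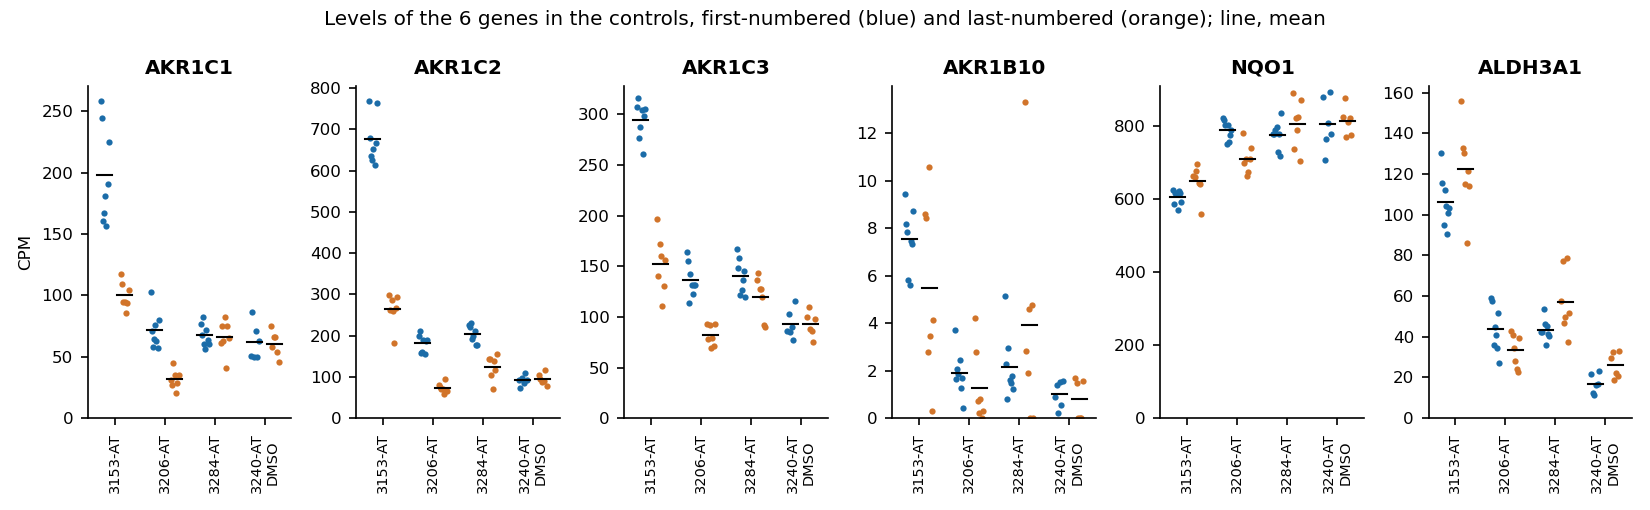
Levels of the 6 genes in the control libraries of 4 plates, in CPM on linear axes from 0, with first-numbered controls in blue, last-numbered in orange and a line at each mean. AKR1C2 of plate 3153-AT lies at 614 to 770 CPM in blue and 181 to 298 in orange, while NQO1 of the same plate overlaps between the sets.

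Against their own controls, 34 of the 473 tested combinations of gene, chemical and dose were called, 24 higher and 10 lower. Of the 24, 20 were metals on plate 3153-AT and 4 were the PCB153 group at 0.25 µM with its outlying library. By dose, 1 of 126 combinations was called at 0.025 µM (0.0104% of all genes tested were called there), 7 of 126 at 0.25 µM (0.0748%), 15 of 126 at 2.5 µM (0.412%) and 11 of 95 at 25 µM in the chemicals that were tested (0.712%). NQO1 was called higher 7 times and never lower, while ALDH3A1 was called higher once and lower 4 times. With a term for the numbered set in the fit, 7, 17, 30 and 16 combinations were called in the same order of dose. The shares of all genes given above are those of the main fit only, and none is given for other settings. Whether calls of all genes moved in step with these counts is therefore not known here. Without replicate 3 of every group, 2 were called at 0.25 µM, and without replicate 2, 7 at 25 µM. The groups of a plate share controls, so these counts are not independent of each other.

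**Figure D2:**
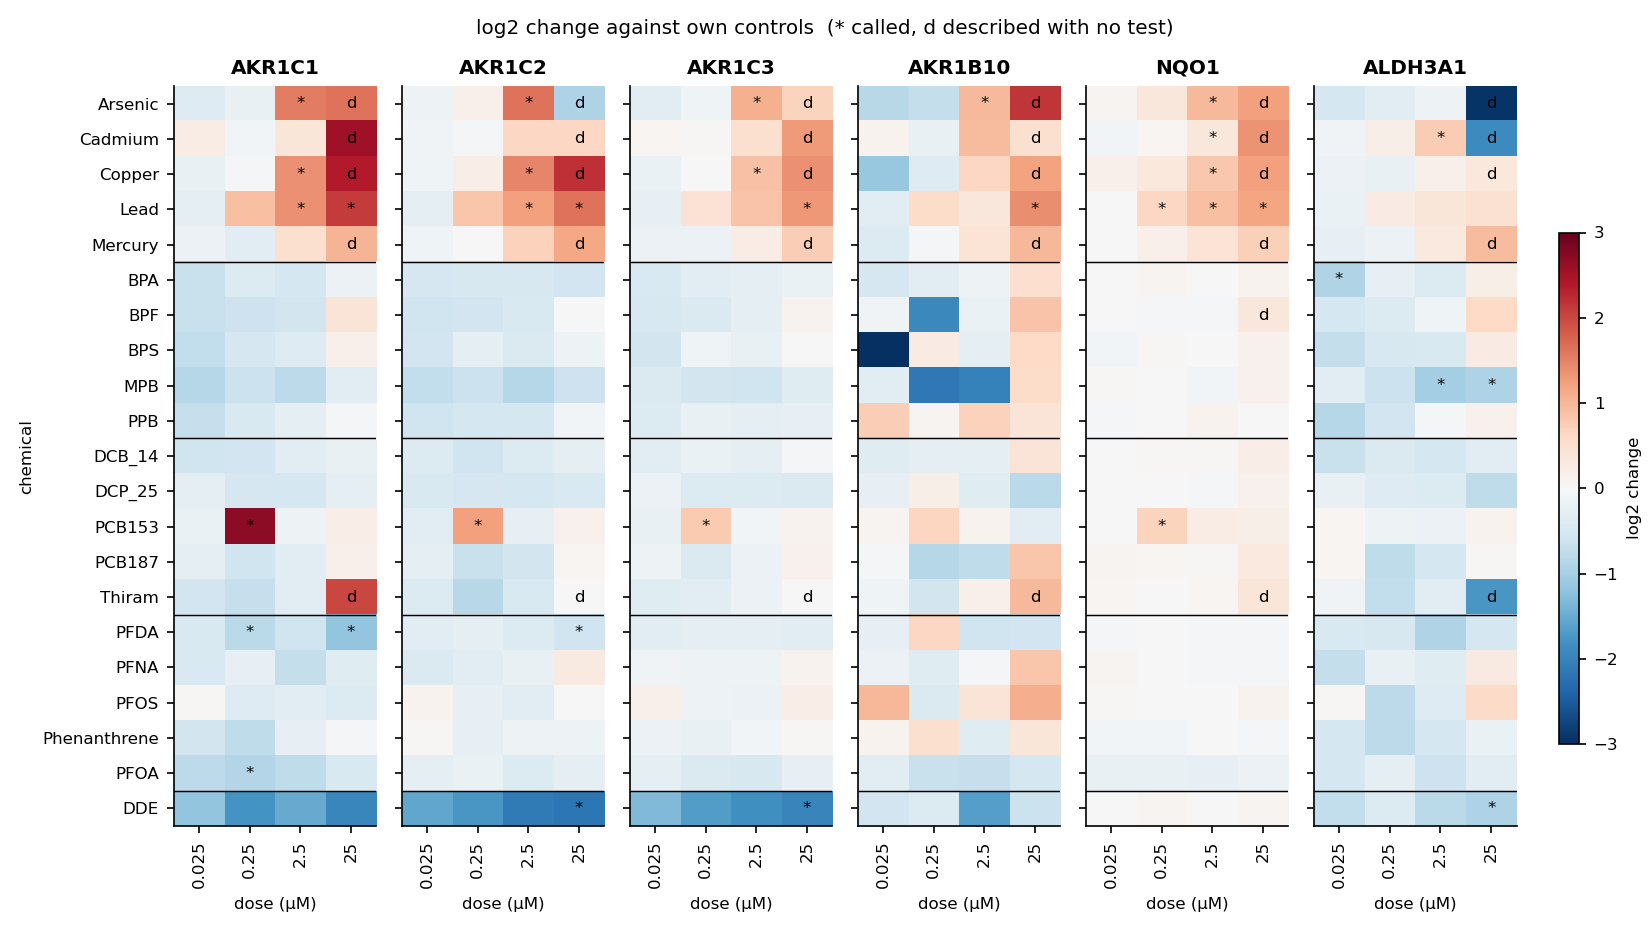
log2 change of each gene against its own controls in 21 chemicals (rows) and 4 doses in µM (columns), with colours limited to 3 in either direction. An asterisk marks a call by edgeR and the letter d a contrast described with no test, and the reds lie mainly in the 5 metals, in NQO1 and the AKR genes, from 0.25 or 2.5 µM upwards.

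Lead was the only metal with a test at 25 µM and of its dose trend. All 4 aldo-keto reductases and NQO1 rose at 25 µM, and NQO1 rose from 0.25 µM. The same 5 genes were called higher in arsenic at 2.5 µM. NQO1 had 903, 904, 1060 and 994 CPM in replicates 1 to 4 at 0.25 µM, 1064, 1181, 1189 and 1277 at 2.5 µM, and 1355, 1371, 1428 and 1492 at 25 µM. The 15 controls ran from 559 to 698 CPM with a median of 623, so every lead library from 0.25 µM upwards lay above every control. The changes were 1.54-fold at 0.25 µM (log2 0.62 ± 0.08 SE, edgeR adjusted p = 6.15e-07, 0.0947% of genes called higher), 1.88-fold at 2.5 µM (adjusted p = 1.34e-14, 0.387%) and 2.25-fold at 25 µM (adjusted p = 6.48e-22, 2.15%).

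AKR1C1 had 917, 780, 496 and 540 CPM in replicates 1 to 4 at 25 µM lead, against 85.4 to 259 CPM (median 157) in the controls, with no overlap. It was 4.29-fold higher (log2 2.10 ± 0.23 SE, edgeR adjusted p = 1.25e-11), and 2.58-fold higher at 2.5 µM (log2 1.37, adjusted p = 9.72e-05), where its libraries had 409, 453, 386 and 397 CPM. AKR1C2 at 25 µM, with the replicate values given above, was 3.11-fold higher (log2 1.63 ± 0.28 SE, edgeR adjusted p = 1.99e-05). All 4 of its libraries were above the highest control of 770 CPM, replicates 1 and 2 by far more than replicates 3 and 4. Within its own numbered set the fold was 3.24 and 3.36. Against the last-numbered controls alone its log2 change was 2.63, and 11 called dose values, this one and others of AKR1C genes in arsenic, copper and lead, were more than 1.5-fold larger against that set.

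AKR1C2 at 2.5 µM lead was 2.36-fold higher (log2 1.24, edgeR adjusted p = 0.00933), with 3 of 4 libraries above all controls. That call was lost without replicate 1 (log2 1.08) or replicate 2 (log2 1.04) of the dosed groups, and against the first-numbered controls alone (log2 0.79). AKR1C3 had 773, 730, 420 and 397 CPM at 25 µM against 111 to 316 in the controls, 2.46-fold (log2 1.30, edgeR adjusted p = 6.44e-05). AKR1B10 had 18.5, 20.8, 18.1 and 17 CPM against at most 10.6 in the controls, 2.61-fold (log2 1.39, adjusted p = 3.69e-05), from 221 to 357 counts per dosed library. ALDH3A1, the remaining member, was not called at 25 µM lead: its libraries had 154, 168, 171 and 128 CPM against 86.0 to 156 in the controls (log2 0.46).

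Over the 4 doses of lead, without the controls, the same 5 genes had rising trends, where 0.515% of genes were called higher. The slope per 10-fold step in dose was 0.77 ± 0.10 SE on the log2 scale for AKR1C1 (edgeR adjusted p = 9.91e-08), 0.62 ± 0.12 for AKR1C2 (adjusted p = 0.00112), 0.50 ± 0.10 for AKR1C3 (adjusted p = 0.00124), 0.50 ± 0.10 for AKR1B10 (adjusted p = 0.00167) and 0.39 ± 0.03 for NQO1 (adjusted p = 4.91e-15). ALDH3A1 had a slope of 0.21 (edgeR adjusted p = 0.104), which was called when the replicate number was a block (adjusted p = 0.000231) or with a term for the numbered set (adjusted p = 0.00556). The 5 were the only trends of the 6 genes called among the 94 tested combinations in 16 chemicals, where 0.0813% of genes were called in either direction.

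Copper at 2.5 µM raised the 3 AKR1C genes and NQO1, where 1.41% of genes were called higher. NQO1 had 1083, 1108, 1073 and 1096 CPM, all above the highest control of 698, and was 1.74-fold higher (log2 0.80 ± 0.08 SE, edgeR adjusted p = 6.24e-12). AKR1C1 had 514, 513, 310 and 297 CPM, all above the highest control of 259, and was 2.57-fold higher (log2 1.36 ± 0.23, adjusted p = 2.96e-05). AKR1C2 had 1986, 1986, 727 and 811 CPM, and 3 of the 4 exceeded the highest control of 770.

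The change of AKR1C2 at 2.5 µM copper was 2.78-fold (log2 1.48, edgeR adjusted p = 0.000182), and it was 2.94-fold and 2.91-fold within the first-numbered and last-numbered sets. AKR1C3 was 1.84-fold higher (log2 0.88, adjusted p = 0.0185), with 2 of 4 libraries above all controls. That call was lost without replicate 1 (log2 0.71) or replicate 2 (log2 0.73), and against the first-numbered controls alone (log2 0.59). At 25 µM, one of the contrasts behind the choice, AKR1C1 had 1183, 1194, 452 and 485 CPM, AKR1C2 had 3273, 3124, 1297 and 1367, and NQO1 had 1680, 1589, 1328 and 1272. All 4 libraries lay above every control in each of these 3 genes.

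Arsenic at 2.5 µM raised 5 of the 6 genes, where 0.906% of all genes were called higher. AKR1C2 had 1773, 1798, 931 and 1583 CPM, all above the highest control of 770, and was 3.08-fold higher (log2 1.62 ± 0.28 SE, edgeR adjusted p = 4.45e-05). AKR1C1 had 400, 413, 483 and 566 CPM against at most 259, 2.92-fold (log2 1.55 ± 0.23, adjusted p = 2.76e-06). NQO1 had 1195, 1171, 943 and 1631 CPM against at most 698, 1.97-fold (log2 0.98, adjusted p = 7.44e-17).

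AKR1C3 at 2.5 µM arsenic had 605, 568, 289 and 488 CPM, and replicate 3 lay within the controls, which reached 316. It was 2.08-fold higher (log2 1.05, edgeR adjusted p = 0.00415), and the call was lost against the first-numbered controls alone (log2 0.71). AKR1B10 had 18, 16.2, 6.79 and 11.1 CPM from 40 to 316 counts, 1.97-fold (log2 0.98, adjusted p = 0.0379). Its call was lost without replicate 1 (log2 0.78), 2 (0.90) or 4 (1.07), by DESeq2 (0.96), and with either numbered set of controls alone (0.89 and 1.35). ALDH3A1 had 119, 136, 89.3 and 53.5 CPM, which overlapped the controls (log2 -0.16).

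At 25 µM arsenic the genes parted. AKR1C1 had 540, 533, 455 and 439 CPM, close to its level at 2.5 µM, while AKR1C2 had 359, 315, 147 and 221 CPM, below all 4 libraries at 2.5 µM. AKR1B10 had 29.1, 20.2, 39.9 and 36.8 CPM, all above the highest control of 10.6, and ALDH3A1 had 9.22, 14.1, 22.1 and 14.3 CPM, all below the lowest control of 86.0. The described changes were log2 1.63 for AKR1C1, 0.68 for AKR1C3, 2.15 for AKR1B10, 1.24 for NQO1 and -2.94 for ALDH3A1. That of AKR1C2 was -0.93 against all controls and 0.092 against the last-numbered controls alone.

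Cadmium at 2.5 µM raised ALDH3A1, the single call of that gene in the upward direction. It had 177, 180, 206 and 203 CPM, all above the highest control of 156, and was 1.70-fold higher (log2 0.77 ± 0.16 SE, edgeR adjusted p = 0.0031, 0.206% of genes called higher). The call was lost against the last-numbered controls alone, at log2 0.71. NQO1 had 747, 829, 798 and 806 CPM, all above the highest control of 698, 1.27-fold (log2 0.34, adjusted p = 0.041), and its call was lost when any 1 replicate number was left out, at log2 0.32 to 0.37.

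At 25 µM cadmium, given as a description of 2 libraries, AKR1C1 had 935 and 909 CPM, AKR1C2 863 and 668, AKR1C3 681 and 454, NQO1 1563 and 1631, AKR1B10 10.0 and 9.80, and ALDH3A1 28.9 and 30.8. ALDH3A1, which had been above the controls at 2.5 µM, was thus below all of them at 25 µM. These values depend on scaling, since the scaling factors of both libraries (0.555 and 0.491) were far from those of other groups and the median change of all genes was -1.42 on the log2 scale. The described log2 change was 2.53 for AKR1C1 and 1.35 for NQO1, 2.71 and 1.52 with another scaling (RLE), and 1.66 and 0.38 on CPM without scaling. For AKR1C2 it was 0.63, and -0.26 without scaling.

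Mercury at 25 µM, also a ground for the choice, had all 6 genes above their controls. NQO1 had 857, 850, 1205 and 1178 CPM, AKR1C2 1330, 1191, 1020 and 899, AKR1C1 410, 333, 279 and 275, and ALDH3A1 225, 167, 267 and 207, with no overlap between dosed and control libraries in any of these genes. The described folds were 1.63, 2.24, 2.04 and 1.92 in the same order. No member was called at 2.5 µM mercury, where NQO1 came nearest (log2 0.41, edgeR adjusted p = 0.0517).

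**Figure D3:**
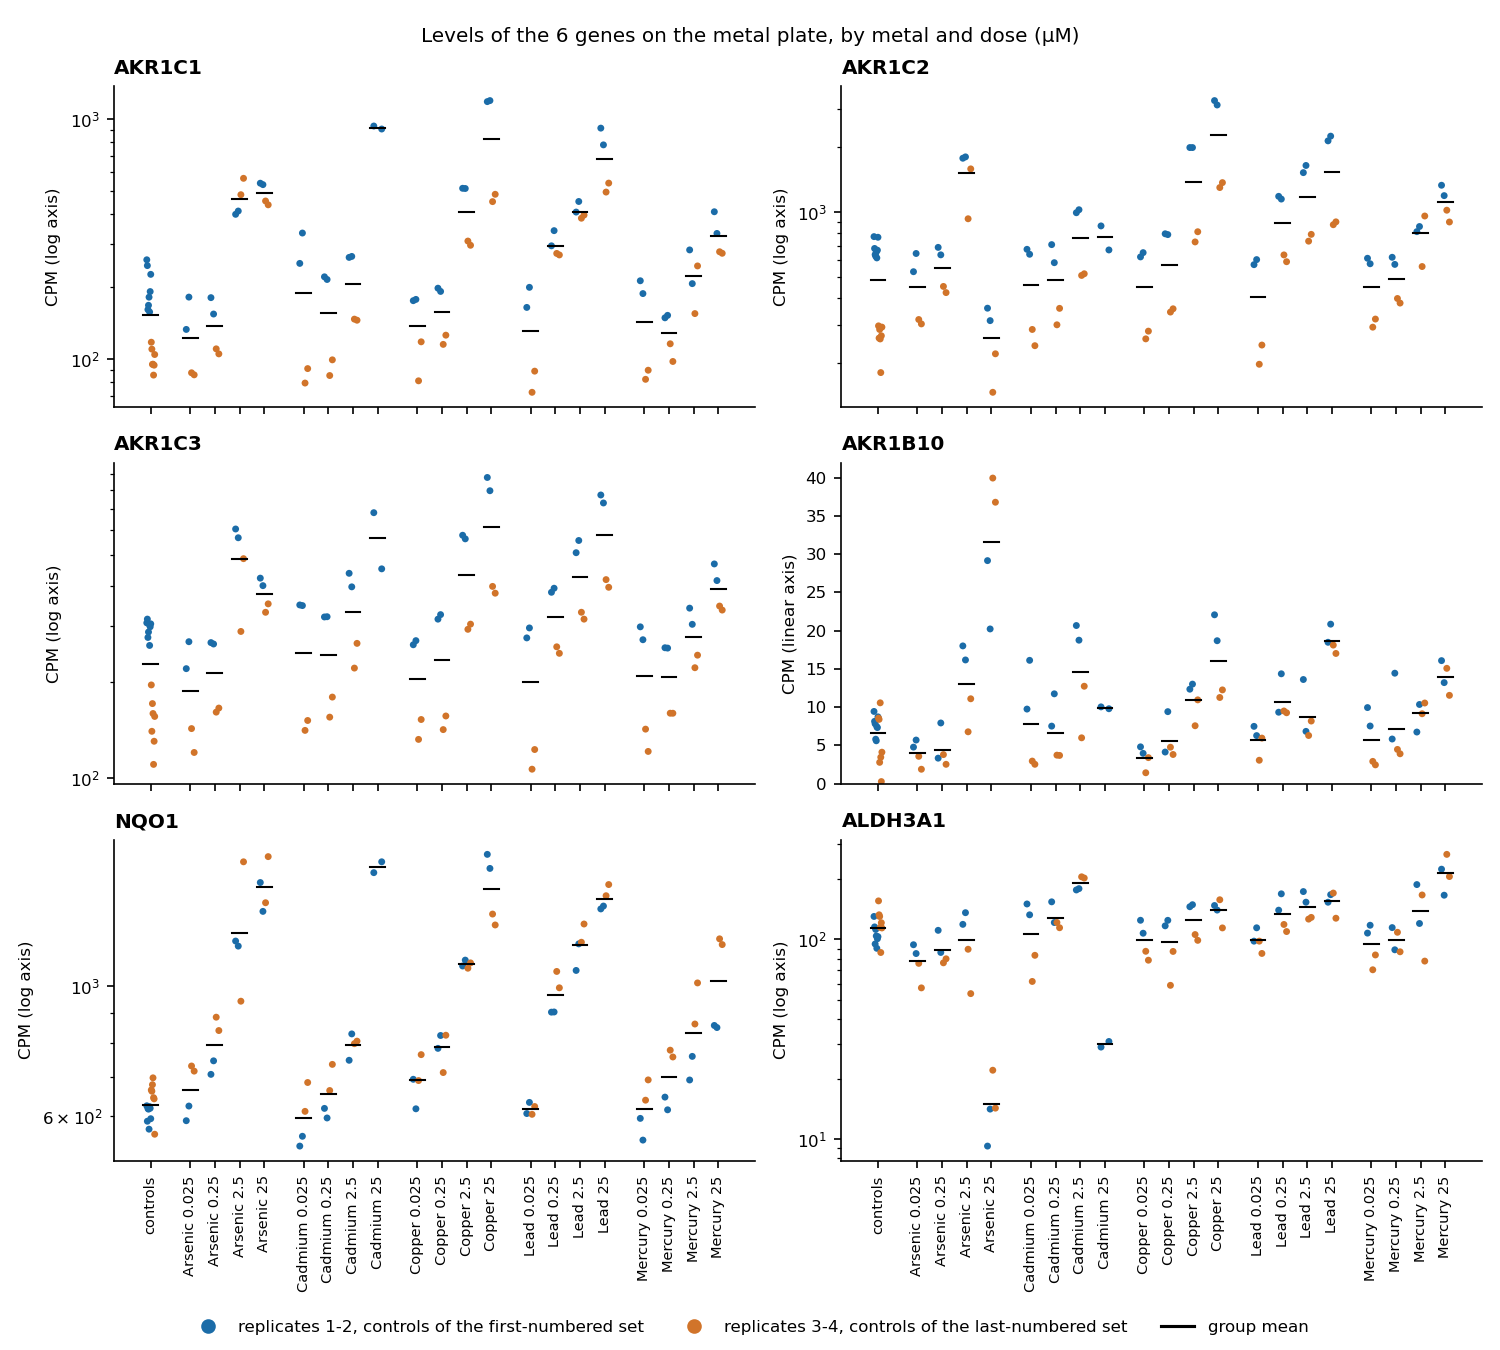
CPM of the 6 genes on plate 3153-AT in the 15 water controls and in 5 metals at 4 doses in µM, on log axes except the linear axis of AKR1B10, with replicates 1 and 2 and first-numbered controls in blue, the rest in orange, and a line at each mean. NQO1 rises from 559 to 698 CPM in controls to 1355 to 1492 at 25 µM lead, and ALDH3A1 is at 9.22 to 22.1 CPM at 25 µM arsenic. In NQO1 blue lies wholly below orange in 11 of 19 dosed groups and wholly above it in 1.

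The ratio of AKR1C1 to AKR1C2 counts is free of library scaling. Outside arsenic, cadmium and thiram at 25 µM it had a median of 0.416 over 391 libraries, and the highest of the 87 such libraries of plate 3153-AT was at 0.6. At 25 µM arsenic it was 1.5, 1.69, 3.10 and 1.98 in replicates 1 to 4, from 1129 to 3354 counts of AKR1C2. At 25 µM cadmium it was 1.08 and 1.36, and at 25 µM thiram 1.11, 1.59, 2.04 and 1.67.

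All 10 of these libraries lay above 1. Of the 391 other libraries 8 did as well: 5 of DDE, 1 control each on plates 3240-AT and 3284-AT, and the outlying PCB153 library, at 1.27. Copper, lead and mercury at 25 µM had median ratios of 0.358, 0.499 and 0.293, against 0.336 in the controls of their plate. Because the pattern was noticed in contrasts behind the choice of genes, it is given with no test.

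**Figure D4:**
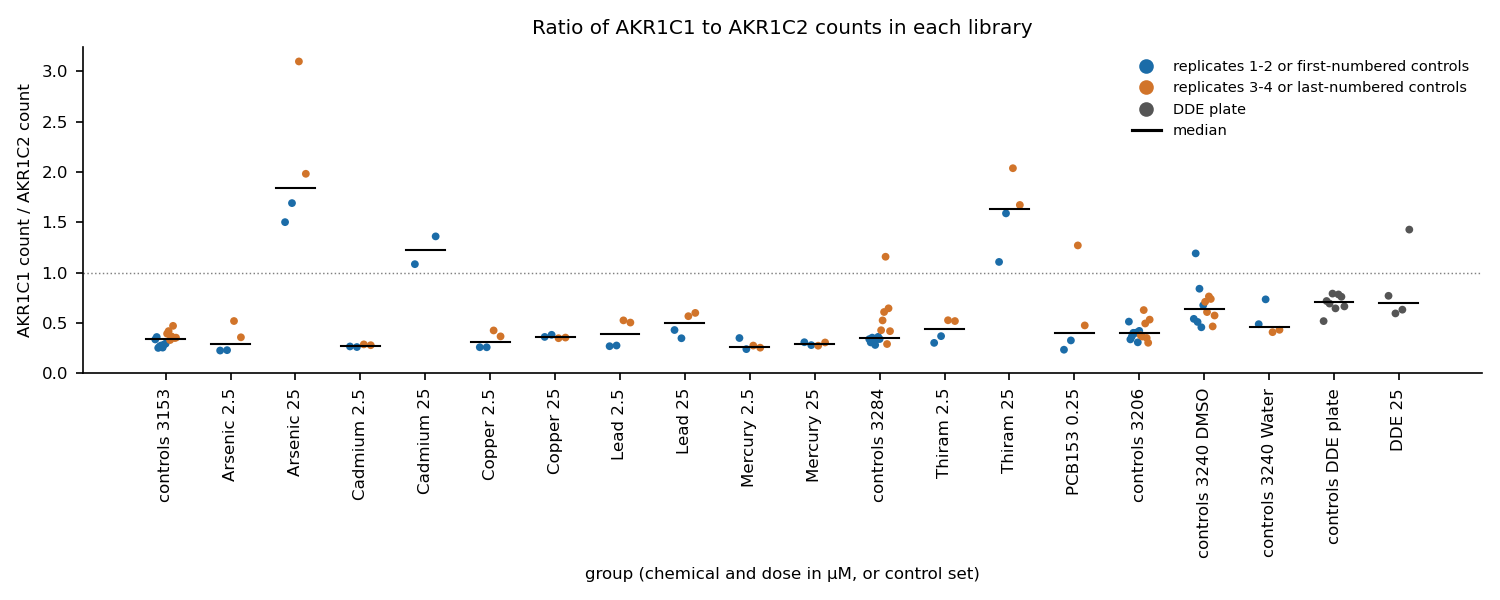
Ratio of AKR1C1 to AKR1C2 counts in each library of selected groups, on a linear axis from 0, with a dotted line at 1, a bar at each median and colours by numbered set. Arsenic, cadmium and thiram at 25 µM lie between 1.08 and 3.10, and the controls of plate 3153-AT between 0.252 and 0.471.

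Thiram, a dithiocarbamate fungicide, was a ground for the choice at 25 µM, and AKR1C1 stood apart from its neighbours there. AKR1C1 had 264, 266, 337 and 186 CPM against 40.6 to 82.1 in the DMSO controls, a described 4.01-fold, while AKR1C2 had 238, 167, 165 and 111 CPM and AKR1C3 168, 131, 122 and 94.0, each with 1 library above its controls and the other 3 among them. ALDH3A1 had 16.6, 14.4, 14.6 and 5.80 CPM, all below the lowest control of 35.7. NQO1 differed between the numbered sets, with 1349 and 1212 CPM in replicates 1 and 2 and 818 and 608 in replicates 3 and 4, and the controls ran from 705 to 892.

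PCB153, a polychlorinated biphenyl, had 4 of the 6 genes called higher at 0.25 µM, where 0.314% of genes were called higher, and all 4 calls rested on replicate 3. AKR1C1 had 44.1, 49.6, 1588 and 36.2 CPM in replicates 1 to 4, AKR1C2 188, 152, 1250 and 76.1, AKR1C3 127, 125, 611 and 71.8, and NQO1 829, 776, 2567 and 847. With it the log2 changes were 2.68, 1.23, 0.80 and 0.67. Without replicate 3 they were -0.63, -0.36, -0.32 and 0.05, and none was called. At 25 µM PCB153 no member was called, and AKR1C1 had 64.1 to 87.2 CPM.

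On plate 3240-AT the AKR1C genes and ALDH3A1 followed the solvent. In the controls, which chose AKR1C2, it had 326, 279, 413 and 423 CPM in water against 72.9 to 117 in DMSO, AKR1C1 159 to 205 against 45.4 to 86.8, and ALDH3A1 47.1 to 69.6 against 11.2 to 33.2. The dosed libraries, which did not enter that choice by controls, had the same order. The PFNA libraries among them did enter the choice of AKR1C2, by its trend over dose. AKR1C2 ran from 229 to 377 CPM (median 275) in the 16 PFOA libraries, in water, and from 49.4 to 126 CPM (median 79.2) in the 64 libraries of the 4 chemicals in DMSO, with no overlap.

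That difference of AKR1C2 was 3.58-fold (log2 1.84 ± 0.05 SE, edgeR adjusted p = 2.83e-61), where 22.3% of genes were called in either direction. ALDH3A1 was 2.82-fold higher (adjusted p = 1.43e-29), AKR1C1 2.47-fold (adjusted p = 3.08e-33), AKR1C3 1.72-fold (adjusted p = 2.67e-30) and AKR1B10 1.99-fold (adjusted p = 0.00122). NQO1 alone went the other way, at 0.875-fold (log2 -0.19, adjusted p = 3.95e-07), from a median of 814 CPM in DMSO to 704 in PFOA. The call of AKR1B10 was lost without replicate 2 (log2 0.74). PFOA and water go together in the dosed libraries. The controls, with no PFOA in either solvent, had described folds of water over DMSO of 3.82 for AKR1C2, 2.93 for AKR1C1, 2.95 for ALDH3A1 and 2.03 for AKR1C3, and for NQO1 a log2 difference of 0.01.

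**Figure D5:**
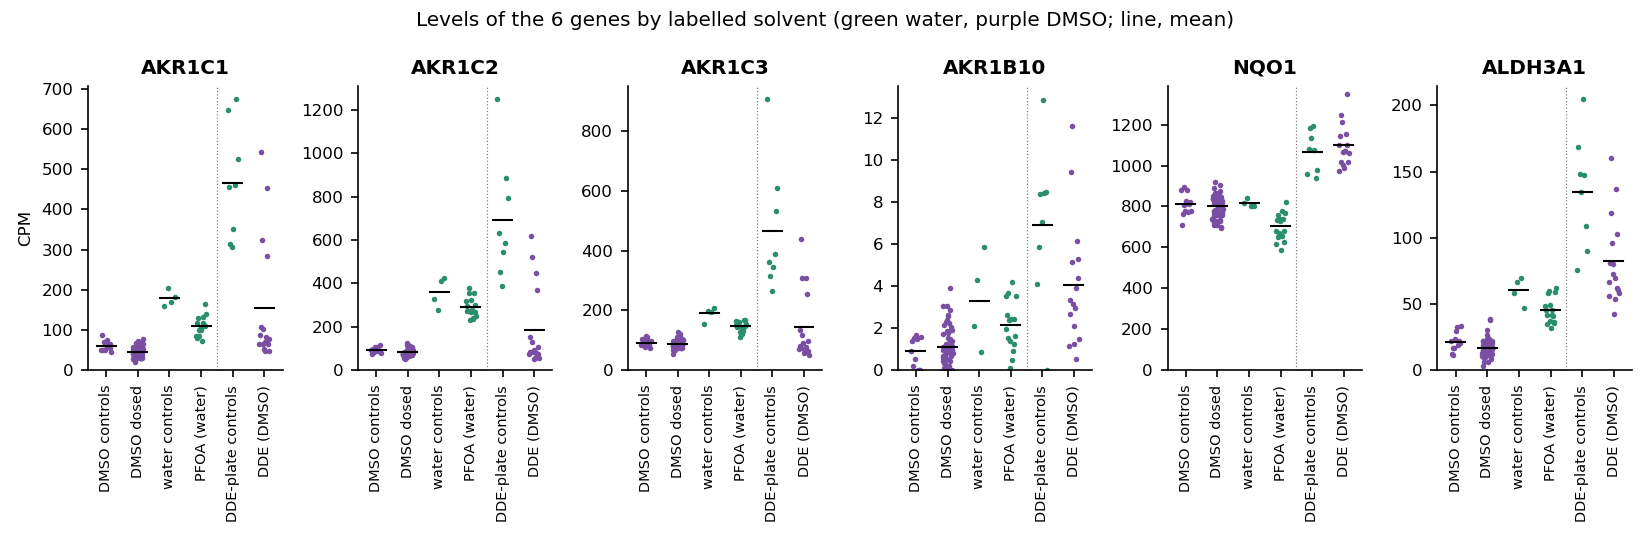
CPM of the 6 genes on linear axes from 0, in libraries labelled DMSO (purple) and water (green) of plate 3240-AT, and right of the dotted line in the controls and DDE libraries of plate 2250-AT, with a line at each mean. AKR1C2 has 229 to 423 CPM in water and 49.4 to 126 in DMSO on plate 3240-AT, while NQO1 overlaps between solvents.

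DDE, a breakdown product of DDT, had AKR1C2, AKR1C3 and ALDH3A1 called lower at 25 µM, where 4.22% of genes were called lower. AKR1C2 had 370, 107, 74.3 and 54.8 CPM against 387 to 1250 CPM in the 8 controls, 0.222-fold (log2 -2.17 ± 0.66 SE, edgeR adjusted p = 0.0461). AKR1C3 had 256, 96.8, 63.2 and 51.3 CPM against 265 to 909, 0.254-fold (log2 -1.98, adjusted p = 0.0349). ALDH3A1 had 103, 62.0, 60.8 and 58.2 CPM against 75.9 to 205 (log2 -0.92), with an adjusted p just under the threshold of 0.05.

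These calls were lost without replicate 2 or 3 of DDE (log2 -2.04 and -1.95 for AKR1C2, -1.90 and -1.78 for AKR1C3), and that of ALDH3A1 also without replicate 4 (log2 -0.83) or without the filter on low counts (log2 -0.91). At 0.025 µM, where no member was called, AKR1C2 had 73.9, 83.0, 152 and 616 CPM. At each dose 1 library had AKR1C2 several-fold above the other 3: 616 CPM at 0.025 µM, 520 at 0.25 µM, 446 at 2.5 µM and 370 at 25 µM. NQO1 had 1351, 1100, 1019 and 1063 CPM at 25 µM against 938 to 1194 in the controls. The DDE libraries are labelled DMSO and their controls water, so chemical and solvent cannot be told apart here either.

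The other decreases were in AKR1C1, AKR1C2 and ALDH3A1. PFDA at 25 µM had AKR1C1 at 19.8, 24.5, 35 and 28.8 CPM, all below the lowest DMSO control of 45.4, 0.441-fold (log2 -1.18 ± 0.18 SE, edgeR adjusted p = 1.95e-05, 0.0565% of genes called lower). AKR1C2 was 0.665-fold (log2 -0.59, adjusted p = 0.00694), and its call was lost without replicate 2 (log2 -0.54) or 4 (log2 -0.49). AKR1C1 was also lower at 0.25 µM PFDA (log2 -0.81, adjusted p = 0.0102, 0.123%), with 41.6, 33.7, 32.4 and 32.6 CPM, and that call was lost against the first-numbered controls alone (log2 -0.83) and in a fit of that group and its controls alone (log2 -0.81). No trend over PFDA doses was called.

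PFOA at 0.25 µM had AKR1C1 at 85.3, 101, 99.4 and 105 CPM against 159 to 205 in the 4 water controls (log2 -0.87, edgeR adjusted p = 0.0282, 0.0103% of genes called lower), and the call was lost without any 1 replicate number, at log2 -0.91 to -0.81. ALDH3A1 was lower in MPB, at 24.2, 19.5, 23.9 and 11.9 CPM at 2.5 µM (log2 -1.01, adjusted p = 0.00865, 0.65%) and 9.44, 21.6, 28.3 and 25.6 CPM at 25 µM (log2 -0.92, adjusted p = 0.00843, 0.946%). Its controls ran from 22.9 to 58.9 CPM and overlapped both groups. Of these calls, the first was lost without replicate 4 (log2 -0.80), the second without replicate 1 (log2 -0.67), and both against the last-numbered controls alone (log2 -0.75 and -0.67). In replicates 3 and 4 against those controls the change at 25 µM was log2 -0.29. BPA at 0.025 µM had ALDH3A1 at 17.6 to 24.7 CPM (log2 -0.91, adjusted p = 0.0382, 0.112%), and the call was lost without replicate 1, 2 or 3 (log2 -0.95, -0.83 and -0.84).

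In BPF at 25 µM NQO1, chosen in part for this group, had 1003, 999, 885 and 929 CPM against 664 to 824 in the controls, a described 1.26-fold. Apart from thiram and the PCB153 group at 0.25 µM, the log2 change of NQO1 lay between -0.24 and 0.34 in all 59 organic chemical groups. AKR1B10 ranged more widely in them, on counts too low to read: at 0.025 µM BPS its mean was 0.107 CPM against 1.61 in the controls (log2 -4.04, edgeR adjusted p = 0.217).

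Related compounds were compared at 2.5 and 25 µM in 8 pairs, with p-values adjusted over all genes and all 16 contrasts, of which 0.00118% were called. None of the 92 tested combinations of the 6 genes and pairs was called, by edgeR or by DESeq2, while 13 had an unadjusted edgeR p under 0.05 and 12 by DESeq2. Over all genes, the number with an unadjusted edgeR p under 0.05 ran from 745 of 21307 (PCB153 minus PCB187 at 2.5 µM) to 1820 of 22301 (MPB minus PPB at 2.5 µM). The combinations share genes and groups, so the 13 are not independent of each other. PFNA and PFDA are perfluorinated carboxylic acids that differ in chain length. At 25 µM AKR1C1 was 1.76-fold higher in PFNA than in PFDA (log2 0.81, 95% interval 0.40 to 1.23, adjusted p = 0.448), with 40.7, 44.5, 56.9 and 48.6 CPM against 19.8 to 35.

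AKR1C2 in the same pair, given with no test because a rising trend in PFNA was a ground for its choice, had 117, 126, 116 and 90.6 CPM in PFNA and 76.0, 57, 67.0 and 49.4 in PFDA, and the groups did not overlap. NQO1 in PFNA and PFDA at 25 µM differed by log2 -0.02 (95% interval -0.17 to 0.14). For BPA and BPS at 25 µM the NQO1 interval was -0.18 to 0.15, and for PCB153 and PCB187 -0.41 to 0.17. For AKR1C1 the interval of MPB minus PPB at 25 µM was -1.01 to 0.39 and that of PCB153 minus PCB187 -0.78 to 0.87, so differences of nearly 2-fold in either direction remain within it for the latter.

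Whether the change at 25 µM differed between the numbered sets was tested in 9 chemicals, where 0.159% of genes were called, and 1 of 54 combinations of the members was called. This was ALDH3A1 in DCB_14 (log2 difference 1.15, edgeR adjusted p = 0.0225), which was not called by DESeq2 and was not called against its controls. The other 10 chemicals rest on contrasts behind the choice of genes and are described with no test. AKR1C2 in mercury was 1.86-fold higher than its controls in the first-numbered set and 3.63-fold in the last-numbered (log2 difference -0.96). AKR1C1 in arsenic was 2.71-fold and 4.47-fold higher, AKR1C3 in arsenic 1.40-fold and 2.25-fold, and NQO1 in thiram 1.65-fold and 0.884-fold. For AKR1C2 in PFOA the log2 difference was 0.79.

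Other genes of the NRF2 pathway were called higher in the same metal groups. The list of 25 holds HMOX1 (heme oxygenase), GCLM and GCLC (the glutathione-synthesis ligase), SLC7A11 (the cystine transporter) and the like, and some of its genes featured in earlier results of these data. At 25 µM lead 21 of 25 were called higher and none lower, where 2.15% of all genes were called higher, with a median log2 change of 0.78 against -0.02 over all genes, led by SLC7A11 (log2 2.76) and HMOX1 (log2 2.19), while ABCC3 and TKT were the lowest. At 2.5 µM, 14 of 25 were called higher in lead (median 0.58, 0.387% of all genes), 14 in copper (median 0.45, 1.41%), 17 in arsenic (median 0.67, 0.906%) and 4 in cadmium (median 0.25, 0.206%), and none was called lower. HMOX1, at log2 5.95, led the list in cadmium at 2.5 µM, and was not called in copper at that dose (log2 0.45).

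In mercury at 2.5 µM the median of the list was 0.25, and in DDE at 25 µM -0.06 with 2 of 25 called higher and 4 lower, where 3.56% and 4.22% of all genes were. Between PFOA in water and the chemicals in DMSO the list went both ways, 10 higher and 7 lower of 25, with a median of -0.02, where 12.3% of all genes were higher and 10.0% lower. The regulators, a list of 7 with NFE2L2, KEAP1 and the small MAF genes, had medians of 0.14 in arsenic, 0.18 in copper and -0.03 in lead at 2.5 µM, with no gene called by edgeR, and 1 of 7 was called higher at 25 µM lead (MAFG, at the top of the list).

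Of 17 further aldo-keto reductases, aldehyde dehydrogenases and reductases 16 were tested on plate 3153-AT, and at 25 µM lead 1 was called higher and 1 lower (median -0.05), where 2.15% of all genes were called higher and 1.70% lower. In arsenic and in copper at 2.5 µM none was called higher and 1 was called lower, ALDH3B1 (log2 -0.68 and -1.23), where 1.06% and 1.6% of all genes were called lower. Of the 6 AhR genes, 5 were tested on that plate. At 25 µM lead CYP1A1 (log2 3.09, named after its value was seen), TIPARP (log2 0.69) and CYP1B1 (log2 0.55) were called higher, and at 2.5 µM 2 of 5 were, beside 2.15% and 0.387% of all genes. In the controls of the plate the AhR list also moved with the numbering, with a median of -1.10. In the first-numbered set 1 of its genes was higher and 3 lower, beside 1275 higher and 873 lower calls among all 24295 genes tested. The part of the numbering in the lead values was not tested. In BPF and PCB153 at 25 µM the AhR gene with the highest log2 change was CYP1A1, at 0.37 and 1.58, and ALDH3A1 was not called in either group.

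Across the 84 groups, AKR1C3 was the nearest match of AKR1C1 and of AKR1C2 among 13839 genes tested on all 5 plates. Spearman's rho of the log2 changes was 0.850 between AKR1C1 and AKR1C3, 0.815 between AKR1C2 and AKR1C3 and 0.719 between AKR1C1 and AKR1C2. After AKR1C3, AKR1C1 was nearest to SQSTM1 (0.799) and GCLM (0.758), both above AKR1C2, and the third match of AKR1C2 was S100A16 (0.712). NQO1 was nearest to TRIM16L (0.830), FTL (0.798) and SQSTM1 (0.774), AKR1B10 to AKR1C3 (0.691), EPHX1 (0.673) and AKR1B1 (0.627), and ALDH3A1 to AKR1C2 (0.622), S100A16 (0.609) and AKR1C3 (0.586).

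Over 61 control libraries of 4 plates, after the mean of each plate was subtracted, AKR1C3 was again the nearest to both. AKR1C1 had Pearson's r of 0.866 with AKR1C3, 0.831 with AKR1C2 and 0.735 with RPL4, and AKR1C2 had 0.865 with AKR1C3, 0.857 with AKR1B1 and 0.837 with DCN. The nearest to NQO1 was ERG28, at 0.571, and its r with the AKR1C genes was 0.04 to 0.11. ALDH3A1 was nearest to SYT8 (0.808) and AKR1B10 to SLC25A3 (0.652). The groups of a plate share controls, and the control libraries share numbered sets and depth, so these values are a description.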

How the data were processed

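RNA of MCF10A wells was measured by plexWell sequencing in 402 libraries. The authors deposited whole-number read counts per gene symbol, 1 table per library. Per the submitters' processing notes, FastQC, MultiQC, STAR and featureCounts were used with GRCh38, with settings not stated there. The 6 genes and the gene lists were chosen with earlier results of these data known.

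Each plate was fitted alone with edgeR 4.0.16 in R 4.3.3 (TMM scaling, filterByExpr with a minimum count of 10 and total of 15, quasi-likelihood F-test with the dispersion from the top 5% of genes, 1 mean per group). Benjamini-Hochberg adjustment was over all genes of a contrast, not over the 84 contrasts, and a call needed an adjusted p under 0.05. CPM uses the TMM-scaled library size. Trends weight the 4 doses linearly, as the log2 slope per 10-fold step. The planned tests of trends in arsenic, cadmium, copper, mercury and thiram, of AKR1C2 in PFNA pairs at 25 µM, and of differences between numbered sets in 10 chemicals (arsenic, copper, mercury, thiram, PFOA and those of plate 3206-AT), were dropped because those groups or their controls had chosen the genes. Named genes were the 6 members, in lists the highest and lowest log2 changes in genes averaging log2 CPM 2 or more, and for likeness the 3 nearest. HMOX1, GCLM and GCLC are also named, after their values were seen.

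On simulated counts for PFDA at 25 µM (15270 genes), 100% of 26 genes changed 1.5-fold and 96.6% of 29 changed 2-fold were recovered, among genes averaging log2 CPM 4 or more. Of 15107 unchanged genes, 6 were called. The simulation used the dispersion from the top 5% of genes, with no added spread per gene and no difference between numbered sets. It therefore does not give the rate of recovery for these 6 genes. Same-numbered libraries of a chemical deviated together, with every correlation over 0.1, in lead and mercury, 2 of 20 chemicals. By that cut the replicate number pairs samples in those only, and the block is an alternative. Copper and PFOA fell short of the cut, with median correlations of 0.118 and 0.106 between same numbers, against -0.104 and -0.0958 between different numbers. Alternatives were RLE scaling, DESeq2 1.42.0, no filter, the set-aside cadmium library kept, AKR1C1 to AKR1C3 summed, leaving out each replicate number, a term for the numbered set, each set or its controls alone, each group with its controls alone, the replicate block and, added after seeing the data, cadmium without scaling. Counts carry no molecular identifiers, and intervals cover the spread between libraries.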

Additional observations from a re-analysis of the deposited data

Results flagged for a closer look

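In 71 sets of values, each 1 of the 6 genes in 1 group of 4 to 10 libraries, 1 library lay far from the others in 7. Chance alone would give about 1 in 20 sets only if the sets were independent and not picked on their values. All 7 belong to combinations of gene, chemical and dose that were called above, so that rate is no yardstick here. Genes of the same library are not independent, and the same libraries recur below. Replicate 3 of PCB153 at 0.25 µM did so in 4 genes, with AKR1C1 at 1588, AKR1C2 at 1250, AKR1C3 at 611 and NQO1 at 2567 CPM. Replicate 1 of DDE at 25 µM had AKR1C2 at 370 and ALDH3A1 at 103 CPM, and replicate 1 of PFDA at 0.25 µM had AKR1C1 at 41.6 CPM.

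The change of ALDH3A1 at 25 µM DCB_14 differed between the numbered sets, by 1.15 on the log2 scale for replicates 1 and 2 minus replicates 3 and 4 (edgeR), and the call was lost by DESeq2.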

How the results depend on the processing

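Of 51 single values called, 51 kept their call with RLE scaling, 50 without the filter and 46 by DESeq2. With a term for the numbered set 42 of 42 did, with the replicate block 11 of 11, and with each group and its controls alone 31 of 34. Fewer did with the first-numbered controls alone (22 of 31), the last-numbered controls alone (23 of 31), the first-numbered set alone (37 of 42, 3 reversed) and the last-numbered set alone (36 of 42). Without replicate 1, 2, 3 or 4, it was 38, 34, 35 (3 reversed) and 39 of 45. With 1 replicate number left out, PCB153 at 0.25 µM ran from -0.63 (without replicate 3) to 3.06 for AKR1C1, -0.36 to 1.58 for AKR1C2 and -0.32 to 1.10 for AKR1C3, and with replicates 1 and 2 alone it was -0.50, -0.26 and -0.14. AKR1C2 at 25 µM arsenic was 0.092 with the last-numbered controls and 0.37 for the 3 AKR1C genes summed, and NQO1 at 25 µM thiram was -0.17 with replicates 3 and 4 alone.

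Counts of calls moved more. At 0.025 µM the 1 call became 0 by DESeq2, 20 without the filter, 7 with a term for the numbered set, 15 and 4 in the first-numbered and last-numbered sets alone, and 3 and 0 with either set of controls. Leaving out 1 replicate number gave 0 to 5. At 0.25 µM the 7 became 30 without the filter, 17 with the term, 18 and 19 in the sets alone and 13 with each group and its controls alone, and 2 to 9 with 1 replicate number left out. At 2.5 µM the 15 became 37, 30, 30 and 26 in the same order (no filter, term, sets alone), and at 25 µM the 11 became 18 without the filter, 17 in the first-numbered set alone and 7 to 11 with 1 replicate number left out. The 5 trends became 16 without the filter, 11 with the term, 13 and 8 in the sets alone and 12 with the replicate block. The 5 trends of lead, a chemical whose numbers pair, were all called under the block. The 1 difference between numbered sets became 0 by DESeq2. The block gave 0 calls among related compounds, and no filter gave 5. The cause of these moves was not tested. Depth limits AKR1B10, which had no count in some libraries.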
